A study of Homo sapiens with 24 samples.

Results

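The heat shock chaperones described here were 10 genes listed as chaperones that fold steroid receptors: HSPA8, HSPA1A, HSPA1B, HSPH1, DNAJB1, HSP90AA1, HSP90AB1, FKBP4, HSPB1 and HSPD1. They were taken by symbol, and all 10 were found among the 22227 genes of the ligand tables and the 23028 genes of the siRNA tables. Their working name, cytosolic heat shock chaperones, and this description did not suit every member, because HSPD1 encodes the chaperonin HSP60 of the mitochondrial matrix, where these receptors are not folded, and FKBP4 encodes an immunophilin that assists HSP90. RNA-seq was carried out on LNCaP cells, an established androgen-responsive prostate cancer line, kept in charcoal-stripped serum, which is depleted of steroids, for 3 days. In the ligand experiment the cells received vehicle, 10 nM of the androgen dihydrotestosterone (DHT), or 10 µM of the antiandrogen enzalutamide, and each ligand was given for 4 h or for 24 h. In the siRNA experiment the cells were transfected with a pool of siRNAs against GATA2 (siGATA2), which encodes a pioneer transcription factor, or with a non-targeting pool (siControl). These cells received vehicle or 25 µM enzalutamide 72 h after transfection and were collected 24 h later, with 3 libraries for each of the 4 conditions. The ligand experiment had 2 libraries per condition, and the labels give its vehicle no time of its own, so that all 4 ligand conditions were compared with the same vehicle libraries.

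HSP70 proteins bind unfolded stretches of newly made proteins, with J-domain proteins such as DNAJB1 stimulating their ATPase and exchange factors such as HSPH1 recycling them. Steroid receptors pass from HSP70 to HSP90, where FKBP4 and other co-chaperones keep them able to bind hormone. Many chaperone genes are induced by heat shock factor 1 (HSF1), while HSPA8 and HSP90AB1 are abundant in unstressed cells.

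Positions were taken from the GENCODE annotation of GRCh38, whereas the submitters' processing notes name hg19 as the build of the files, so the coordinates only place the genes. In the HSP70 system, HSPA8, the constitutive HSP70, lies at chr11:123057489-123063230 on the minus strand. HSPA1A (chr6:31815464-31817946) and HSPA1B (chr6:31827735-31830255), the inducible HSP70 genes, are neighbours on the plus strand. HSPH1, which encodes HSP110, lies at chr13:31134974-31162388 on the minus strand, and DNAJB1, which encodes the J-domain protein HSP40, at chr19:14514770-14529770 on the minus strand. In the HSP90 system, HSP90AA1 (inducible HSP90) lies at chr14:102080738-102139699 on the minus strand, HSP90AB1 (constitutive HSP90) at chr6:44246166-44253888 on the plus strand and FKBP4 at chr12:2794953-2805423 on the plus strand. HSPB1, the small heat shock protein HSP27, lies at chr7:76302544-76304295 on the plus strand, and HSPD1 at chr2:197486581-197516737 on the minus strand.

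Several members share sequence with other genes, which bears on how reads were assigned. The coding sequences of HSPA1A and HSPA1B, 1923 bases each, differ at 4 bases and are 99.8% identical. Of the 50-base words in a coding sequence, 93.9% of those of HSPA1A and 96.6% of those of HSPA1B occur in transcripts of another gene. This share was 35.6% for HSPD1 and 19.7% for HSPA8, each of which has 17 named pseudogenes, 24.2% for HSP90AA1, 23.3% for HSP90AB1 and 17.3% for HSPB1. It was lower for DNAJB1 (5.87%) and FKBP4 (5.27%), and no word of HSPH1 was shared. The deposited estimated counts of HSPB1 and FKBP4 were exactly whole, with no tolerance, in 12 of 12 columns. Those of HSPD1, HSPA1B and HSPH1 were so in 0 of 12. This did not follow the shared words, since HSPH1 shares none and HSPB1 shares 17.3%. HSPA1A held 37.8 estimated counts in all 12 ligand columns together against 133159 for HSPA1B, so the values of HSPA1B may include reads of HSPA1A, and both genes are uncertain as separate genes. HSPD1 overlaps HSPE1 and MOB4, HSP90AA1 overlaps WDR20 and DNAJB1 overlaps TECR on the opposite strand. Whether the counting used strand is not given in the sources used here.

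RefSeq promoter windows (GRCh38.p14, from 250 bases before to 50 bases after a transcript start) were available for 9 of the 10 members and numbered 15, without FKBP4. They were searched on both strands for heat shock pairs, the words GAANNTTC and TTCNNGAA that HSF1 sites are built from. The search was made because many members were lower after enzalutamide, and a link of these words to the changes was not tested. A pair occurred in 9 of the 15 windows, which belong to 8 members, and in 13.5% of all 35116 windows of the table. Both words read the same on either strand and can overlap to form a triple, GAANNTTCNNGAA or TTCNNGAANNTTC. Triples occurred in 0.490% of all windows and in windows of 4 members, HSPA8, HSP90AA1, HSP90AB1 and HSPD1. In the window of HSPA8 they read GAAAGTTCCAGAA and TTCTGGAAGGTTC, in that of HSP90AA1 TTCCGGAAGGTTC, and in that of HSPD1 TTCTGGAAAGTTC and GAAAGTTCTGGAA, which overlap. Stretches outside annotated exons are shown for 4 members as examples of pairs and for HSPH1, whose window had none of the searched words, with heat shock pairs in capitals. HSP90AA1, which also changed strongly, is not shown, because its stretches outside exons, of 94 and 103 bases, held 0 pairs. They are HSPA1B (chr6:31827488-31827734, plus strand, 1 pair), DNAJB1 (chr19:14518421-14518647, minus strand, 2 pairs), HSP90AB1 (chr6:44247693-44247865, plus strand, 4 pairs in 2 triples), HSPB1 (chr7:76302423-76302543, plus strand, 1 pair) and HSPH1 (chr13:31162389-31162638, minus strand, 0 pairs).
HSPA1B: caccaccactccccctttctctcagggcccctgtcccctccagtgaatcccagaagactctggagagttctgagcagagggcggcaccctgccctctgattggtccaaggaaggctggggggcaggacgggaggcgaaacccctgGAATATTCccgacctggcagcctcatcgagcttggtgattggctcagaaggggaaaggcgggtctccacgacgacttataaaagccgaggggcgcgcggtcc
DNAJB1: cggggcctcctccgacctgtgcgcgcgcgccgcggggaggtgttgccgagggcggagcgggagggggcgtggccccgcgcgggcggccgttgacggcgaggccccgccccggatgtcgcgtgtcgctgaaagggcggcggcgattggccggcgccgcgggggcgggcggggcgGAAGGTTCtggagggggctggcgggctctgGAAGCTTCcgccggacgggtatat
HSP90AB1: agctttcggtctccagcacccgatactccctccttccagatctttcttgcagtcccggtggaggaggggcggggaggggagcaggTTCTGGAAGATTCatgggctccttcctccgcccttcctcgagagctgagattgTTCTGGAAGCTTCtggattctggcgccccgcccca
HSPB1: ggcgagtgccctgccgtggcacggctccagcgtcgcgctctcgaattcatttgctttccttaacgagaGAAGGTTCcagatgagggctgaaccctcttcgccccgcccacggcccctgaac
HSPH1: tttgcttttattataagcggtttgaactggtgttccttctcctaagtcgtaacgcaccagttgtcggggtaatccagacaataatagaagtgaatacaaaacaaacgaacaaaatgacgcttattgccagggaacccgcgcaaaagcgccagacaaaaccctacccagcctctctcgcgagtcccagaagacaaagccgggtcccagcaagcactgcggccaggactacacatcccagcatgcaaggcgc
Words recognised by GATA factors, AGATA or TGATA followed by A or G, occurred in 8769 of the 35116 windows and, among the members, in that of HSPA8 alone. The TATA word TATAAA occurred in 11.5% of windows and in those of HSPA1A and HSPA1B. A match is a description of these letters and not a measured site.

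Total estimated counts were between 38894876 and 59985287 per ligand sample. The siRNA libraries were deposited as RPKM, and the steps between low values put their depth between about 59 and 77, in units of 1e6 mapped reads. The sample labels list 4 biological replicates of vehicle, but the vehicle table held 3 columns named replicate 1 and 1 named replicate 2. The 3 were read as runs of 1 sample, which differed from each other by a mean chi-square of 1.51 to 1.54 per gene (1 is counting noise alone) and from replicate 2 by 3.42 to 3.59, and were summed. Pairs labelled as separate replicates, of greater depth, differed by between 1.98 (DHT 4 h) and 9.32 (enzalutamide 4 h). The chi-square values alone therefore do not settle this reading, which rests on the column names. Column names carry the prefixes ZC1, ZC2 and ZC3, of unstated meaning. Both enzalutamide 4 h libraries had ZC2 and both 24 h libraries ZC3, both DHT 4 h libraries had ZC1, the DHT 24 h libraries had ZC2 and ZC3, and the vehicle columns covered all of them. The 4 h and 24 h libraries of enzalutamide, and likewise those of DHT, therefore share no prefix, but each ligand could be set against the vehicle run of its own prefix, and at 24 h DHT replicate 2 and both enzalutamide libraries share ZC3. The labels call the ligand libraries biological replicates. Nothing says that the siRNA libraries came from separate cultures, so their p-values measure the spread between these libraries only.

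GATA2, the siRNA target, measured 83.8, 77.0 and 86.1 RPKM in the siControl vehicle libraries and 54.3, 53.4 and 46.6 RPKM in the siGATA2 vehicle libraries. Under enzalutamide it measured 129, 132 and 128 RPKM in siControl and 60.1, 64.7 and 61.5 RPKM in siGATA2 cells. Every siGATA2 library was below every siControl library, as the labels imply, by a log2 difference of -0.68 in vehicle (limma adjusted p = 3.12e-06) and -1.06 under enzalutamide (limma adjusted p = 1.07e-07). KLK3, which encodes the androgen-induced prostate-specific antigen, went from 256.5 CPM (counts per 1e6) in vehicle to 619.8 and 2117 CPM (with TMM factors) after 4 and 24 h of DHT and to 209 and 110 CPM after 4 and 24 h of enzalutamide. The 8 luminal prostate markers were present in every condition, with FOLH1 or KLK3 the most abundant, at summed levels of 3772 to 5850 CPM without TMM factors in the ligand and 730.4 to 1469 RPKM in the siRNA conditions. In the siRNA libraries KLK3 was 791 RPKM in siControl vehicle, 286 in siControl enzalutamide, 24.1 in siGATA2 vehicle and 18.5 in siGATA2 enzalutamide cells, and the luminal sum was 1469, 856, 764 and 730.4 RPKM in that order, a shift alongside the members' changes whose part in them was not tested. The 4 basal markers summed to at most 0.451 CPM or 0.112 RPKM.

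In siControl cells with vehicle, RPKM, a measure per length, ordered the members from HSP90AB1 (645 ± 8.01, SD, n = 3) over HSPA8 (606 ± 9.08), HSPB1 (509 ± 47.1), HSP90AA1 (429 ± 8.86), HSPD1 (234 ± 4.55), FKBP4 (110.4 ± 0.288), HSPH1 (46.9 ± 1.17), DNAJB1 (34.3 ± 1.00) and HSPA1B (7.90 ± 0.483) to HSPA1A (0.00525 ± 0.00273). No neighbours in this order overlapped. Constitutive HSP90 and HSP70 thus led, and the inducible HSP70 genes came last in these tables. In the ligand vehicle libraries HSPA1B, at 124 CPM per kilobase of exon, stood above HSPB1 (120.4), FKBP4 (86.3), DNAJB1 (31.6) and HSPH1 (25.5), in tables that were normalized separately. Under enzalutamide the libraries of HSP90AB1 and HSPA8, and those of HSPD1 and HSP90AA1, overlapped, and DNAJB1 (27.4 RPKM) stood above HSPH1 (22.3 RPKM). HSPB1 came first in siGATA2 cells, at 1016 ± 74.3 RPKM with vehicle and 940.4 ± 56.7 RPKM with enzalutamide. HSPA8 and HSP90AA1 overlapped there in both treatments, and DNAJB1 and HSPH1 overlapped with vehicle. The summed level of all 10 members was 2624 ± 30.2 RPKM in siControl vehicle, 2285 ± 50.2 in siControl enzalutamide, 2903 ± 24.6 in siGATA2 vehicle and 2790 ± 29.7 in siGATA2 enzalutamide libraries. With vehicle, HSPB1 rose by more than this sum did (509 RPKM in siControl and 1016 RPKM in siGATA2 cells). The other members together were therefore lower in siGATA2 vehicle than in siControl vehicle libraries.

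**Figure D1:**
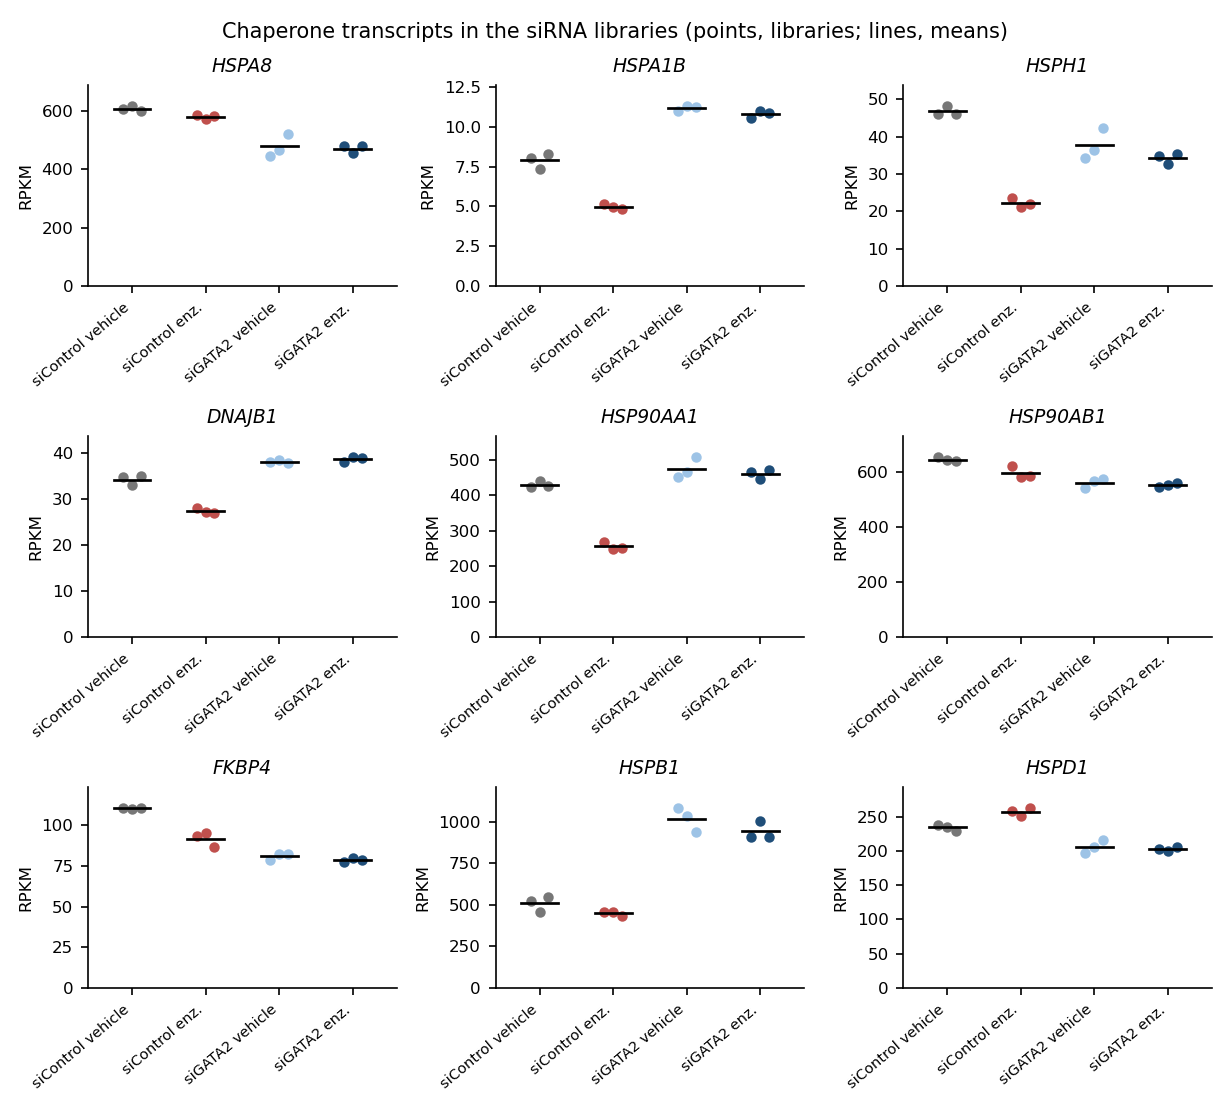
RPKM of 9 members in each of the 12 siRNA libraries (points) with group means (bars), on a linear axis. HSPH1, HSP90AA1 and HSPA1B lie lower in the siControl enzalutamide libraries than in the other 3 groups, and HSPB1 lies higher in all 6 siGATA2 libraries.

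The first question in the siRNA experiment was how 25 µM enzalutamide for 24 h changed the members in siControl cells. Most of the HSP70 and HSP90 systems fell, HSPH1 furthest, while HSPA8 was not called and HSPD1 rose slightly. Of the 10 members, limma called 6 lower and 1 higher, where it called 24.4% of the 20369 genes tested lower and 17.7% higher. The median log2 difference was -0.22 over the members and -0.02 over all genes tested. Since the RNA came from bulk cultures, fewer cells of a kind and less RNA per cell cannot be told apart.

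In the HSP70 system, HSPH1 measured 46.2, 48.2 and 46.2 RPKM with vehicle and 23.6, 21.3 and 21.9 RPKM with enzalutamide. All enzalutamide libraries lay far below all vehicle libraries, a mean difference of -52.5% (log2 -1.07, 95% CI -1.23 to -0.92, limma adjusted p = 1.03e-06). HSPA1B measured 8.05, 7.36 and 8.29 RPKM with vehicle and 5.16, 4.98 and 4.82 RPKM with enzalutamide, again without overlap (log2 -0.65, 95% CI -0.75 to -0.56, limma adjusted p = 1.15e-06). DNAJB1, their J-domain partner, went from 34.8, 33.2 and 35 RPKM to 28.1, 27.1 and 26.9 RPKM, lower in 3 of 3 libraries (log2 -0.32, limma adjusted p = 4.27e-06). HSPA8 was 606.2, 615.6 and 597.4 RPKM with vehicle and 585.9, 570.2 and 581.5 RPKM with enzalutamide. These groups did not overlap, yet the difference was small against the spread in the model (log2 -0.07, 95% CI -0.19 to 0.05, limma adjusted p = 0.374). HSPA1A stayed at or below 0.0107 RPKM in all 12 libraries, too low to compare on the log2(RPKM + 0.1) scale used throughout the siRNA tests.

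In the HSP90 system, HSP90AA1 measured 423, 440 and 425 RPKM with vehicle and 268, 249 and 252 RPKM with enzalutamide. Its mean fell by 40.3%, with all 3 enzalutamide libraries below the vehicle libraries (log2 -0.74, 95% CI -0.86 to -0.63, limma adjusted p = 1.34e-06). FKBP4 went from 110.5, 110 and 110.5 RPKM to 93.6, 95.1 and 86.7 RPKM, lower in each library (log2 -0.27, limma adjusted p = 0.000115). HSP90AB1 lay just past the threshold (log2 -0.11, 95% CI -0.21 to -0.02, limma adjusted p = 0.0448), and its call was lost with library medians made equal (limma adjusted p = 0.271), without a filter on low values (0.0516) and without any one of 9 libraries (0.0585 to 0.137). HSPD1 rose from 238, 235 and 229 RPKM to 259, 251 and 263 RPKM, higher in 3 of 3 libraries (log2 0.13, limma adjusted p = 0.0110). HSPB1, the small chaperone, measured 521, 457 and 550 RPKM with vehicle and 459, 457 and 434 RPKM with enzalutamide. Its groups met at the vehicle library of replicate 2, and it was not called (log2 -0.18, limma adjusted p = 0.104) unless that library was left out (log2 -0.25, limma adjusted p = 0.0224).

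In siGATA2 cells the same treatment gave no call among the members: limma called 0 of 10 higher and 0 of 10 lower, against 0.221% and 0.191% of the genes tested, and 0 of 10 had an unadjusted p below 0.05. DESeq2 and edgeR were not run on these values, and 0 were also called by limma without its variance trend. HSPH1 measured 34.4, 36.5 and 42.3 RPKM with vehicle and 34.97, 32.6 and 35.3 RPKM with enzalutamide, HSP90AA1 451, 465 and 508 RPKM and 466, 446 and 471 RPKM, and HSPA1B 11.0, 11.3 and 11.2 RPKM and 10.6, 11.0 and 10.9 RPKM. The libraries of HSPH1 and HSP90AA1 overlapped between treatments. Log2 differences ran from -0.13 (HSPH1, 95% CI -0.28 to 0.02) to 0.02 (DNAJB1, 95% CI -0.03 to 0.08), with a median of -0.03 over the members and -0.01 over all genes. The difference of HSPH1 ran from -0.20 to -0.05 when 1 library was left out, without a call.

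The difference between these responses was tested as the interaction of siGATA2 and enzalutamide. Of the 10 members, limma called 5 higher, meaning that the response to enzalutamide was less negative in siGATA2 cells, and 1 lower, against 15.0% and 10.8% of the genes tested. HSPH1 had an interaction of 0.94 on the log2 scale (95% CI 0.72 to 1.16, limma adjusted p = 9.23e-05), HSP90AA1 of 0.70 (0.55 to 0.86, limma adjusted p = 7.24e-05) and HSPA1B of 0.61 (0.47 to 0.74, limma adjusted p = 7.17e-05). DNAJB1 (0.35, limma adjusted p = 9.30e-05) and FKBP4 (0.22, limma adjusted p = 0.00733) followed. The members that fell in siControl cells, apart from HSP90AB1 (0.10, limma adjusted p = 0.264), were those with a higher call. The interaction holds the siControl response with its sign turned, so this match largely restates those falls. The interaction of HSPD1 was -0.16 (limma adjusted p = 0.0424), a call lost without the variance trend (0.0531) and without any one of 10 libraries (0.0550 to 0.0891). HSPA8 (0.05, 95% CI -0.12 to 0.22) and HSPB1 (0.06, 95% CI -0.19 to 0.31) were not called. The median was 0.16 over the members and 0.01 over all genes tested.

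**Figure D2:**
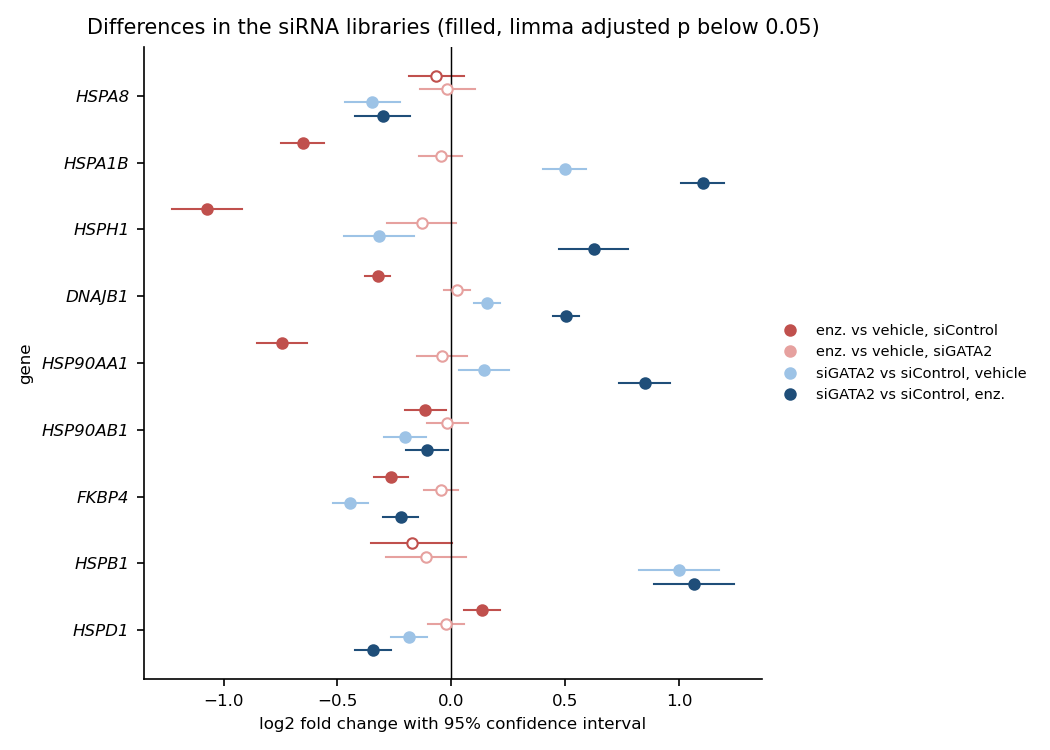
Log2 differences of 9 members in the siRNA experiment (points) with 95% confidence intervals (lines), filled where the limma adjusted p was below 0.05. The enzalutamide points of siControl cells lie left of 0 for HSPH1 (-1.07), HSP90AA1 (-0.74) and HSPA1B (-0.65), those of siGATA2 cells lie near 0, and both siGATA2 points of HSPB1 lie near 1.

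How siGATA2 itself changed the members was asked with vehicle and again under enzalutamide, in comparisons that share the libraries of those above. With vehicle, limma called 4 of 10 members higher and 5 lower, where 24.2% of all genes tested were called higher and 31.4% lower. Under enzalutamide it called 5 higher and 4 lower, against 26.3% and 28.1%. HSPB1, HSPA1B, DNAJB1 and HSP90AA1 were higher with siGATA2 in both treatments, and HSPA8, FKBP4, HSPD1 and HSP90AB1 were lower in both. HSPH1 was lower with vehicle and higher under enzalutamide. The median log2 difference of the members was -0.10 with vehicle and 0.27 under enzalutamide, against -0.03 and about 0 over all genes.

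HSPB1 showed the largest rise with vehicle, from the siControl values given above to 1081, 1033 and 935 RPKM in siGATA2 cells (log2 1.00, 95% CI 0.82 to 1.17, limma adjusted p = 1.43e-06). Under enzalutamide its siGATA2 libraries measured 909, 1006 and 907 RPKM (log2 1.06, limma adjusted p = 9.01e-07). Every siGATA2 library thus exceeded every siControl library. HSPA1B rose by 0.50 on the log2 scale with vehicle (limma adjusted p = 2.64e-06) and by 1.10 under enzalutamide (95% CI 1.01 to 1.20, limma adjusted p = 7.79e-09), the largest difference of a member there in the main setting. Over the alternatives HSPA1B ran from 0.98 to 1.14 and HSPB1 from 1.01 to 1.10, so their order need not hold in each. DNAJB1 measured 38.1, 38.7 and 37.9 RPKM in siGATA2 cells with vehicle and 38.2, 39.2 and 39.0 RPKM with enzalutamide, above the siControl libraries in both cases (log2 0.16 and 0.50). HSP90AA1 was barely higher with vehicle (log2 0.14, 95% CI 0.03 to 0.25, limma adjusted p = 0.0308), a call lost without siControl vehicle replicate 1 (0.0858) or 3 (0.0751) or without siGATA2 vehicle replicate 3 (0.107), and clearly higher under enzalutamide (log2 0.85, limma adjusted p = 1.46e-07).

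HSPA8 measured 445, 467 and 520.3 RPKM in siGATA2 cells with vehicle and 478, 455 and 479 RPKM with enzalutamide. All of these lay below the siControl libraries (log2 -0.35 with vehicle, limma adjusted p = 0.000253, and -0.30 under enzalutamide, limma adjusted p = 0.000710). FKBP4 measured 78.9, 82.0 and 82.6 RPKM with vehicle and 77.1, 79.7 and 78.9 RPKM with enzalutamide, also without overlap (log2 -0.44 and -0.22). HSPD1 fell by 0.19 and 0.34 on the log2 scale and HSP90AB1 by 0.20 and 0.11. The last of these (limma adjusted p = 0.0463) was lost with library medians made equal (0.203), without a filter on low values (0.0533) and without any one of 9 libraries (0.0520 to 0.165). HSPH1 was lower by 0.32 with vehicle (limma adjusted p = 0.00235) and higher by 0.62 under enzalutamide (limma adjusted p = 1.90e-05), the same interaction of 0.94 seen from the other side.

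Genes listed as markers of other cell types also moved in these libraries, all of which came from the LNCaP line. The summed level of 5 immune markers was 3.76 RPKM in siControl vehicle, 4.94 in siControl enzalutamide, 11.5 in siGATA2 vehicle and 11.2 in siGATA2 enzalutamide libraries, of which CD68, a lysosomal protein, made up 3.73, 4.92, 11.5 and 11.2 RPKM, and 1 or 2 of the 5 were at 0. The 5 stromal markers summed to 11.2, 13.4, 15.1 and 14.96 RPKM in the same order, mostly COL1A1, with 1 at 0. The 4 endothelial markers summed to 0.976, 0.467, 1.29 and 0.885 RPKM in that order, mostly VWF, lower with enzalutamide under either siRNA. CD68 was called higher with siGATA2 (log2 1.60 with vehicle, limma adjusted p = 1.19e-08). The part of these markers in the results was not tested.

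In the ligand experiment the members were compared in CPM with TMM factors, which give differences within a gene but no order between genes. HSPA1A was too low for the filter, and the other 9 members were tested among 15555 genes. After 4 h of 10 µM enzalutamide, edgeR called 7 of 9 members lower and 0 higher, where 6.68% of the genes tested were called lower and 6.94% higher. DESeq2 likewise called 7 lower and 0 higher, and 8 of the 9 had an unadjusted edgeR p below 0.05. With 4 separate vehicle columns HSP90AB1 was called too (log2 -0.06, edgeR adjusted p = 0.0220). The falls were led by the HSP70 system, and HSPD1 did not move. The median log2 difference was -0.19 over the members and about 0 over all genes tested.

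HSPA1B measured 300.3 and 320.2 CPM with vehicle and 194 and 181 CPM after 4 h of enzalutamide. Both treated libraries lay below both vehicle libraries (log2 -0.73, 95% CI -0.82 to -0.64, edgeR adjusted p = 3.91e-07). HSPA8 went from 2543 and 2445 CPM to 1763 and 1780 CPM (log2 -0.49, edgeR adjusted p = 3.75e-07), DNAJB1 from 114 and 115 CPM to 84.8 and 78.1 CPM (log2 -0.49, edgeR adjusted p = 1.27e-05) and HSPH1 from 219.8 and 204 CPM to 160 and 159.8 CPM (log2 -0.41, edgeR adjusted p = 6.10e-05). None of these groups overlapped. FKBP4 was lower by less (log2 -0.19, edgeR adjusted p = 0.00182). HSP90AA1 (log2 -0.13, edgeR adjusted p = 0.0195) was not called without vehicle replicate 1 (0.123). HSPB1 (log2 -0.17, edgeR adjusted p = 0.0481) was not called without vehicle replicate 2 (0.289), without enzalutamide 4 h replicate 2 (0.248) or without any one of 4 libraries of other conditions (0.0633 to 0.0654), nor with vehicle replicate 1 taken from its ZC1 run alone (0.113). The log2 difference of HSPB1 ran from -0.24 to -0.11 when 1 library was left out. Against the vehicle run of their own prefix, log2 differences were -0.70 for HSPA1B, -0.52 for HSPA8, -0.50 for DNAJB1, -0.41 for HSPH1 and between -0.22 and -0.06 for the other members that were lower.

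After 24 h of enzalutamide edgeR called 8 of 9 members lower and 0 higher, against 17.0% and 16.4% of the genes tested, and DESeq2 called the same numbers. The median log2 difference was -0.31 over the members and 0.01 over all genes. HSPH1 led, at 151 and 146 CPM (log2 -0.51, edgeR adjusted p = 9.54e-07), followed by HSPB1 at 153 and 147 CPM against 186 and 203 CPM with vehicle (log2 -0.37, edgeR adjusted p = 0.000120), HSP90AA1 at 1542 and 1541 CPM against 2018 and 1950 CPM (log2 -0.36, edgeR adjusted p = 1.49e-06) and FKBP4 at 356 and 347 CPM against 446 and 438 CPM (log2 -0.33, edgeR adjusted p = 3.24e-06). Treated and vehicle libraries were separate for each. DNAJB1 (-0.31), HSPA1B (-0.24), HSPA8 (-0.22) and HSP90AB1 (-0.19) were lower too, and HSPD1 was not called (log2 -0.02, 95% CI -0.09 to 0.05). Against the vehicle run with the ZC3 prefix the log2 differences were between -0.57 (HSPH1) and -0.18 (HSPA1B) for the 8 called members.

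Whether the response changed with time was asked by setting 24 h against 4 h of enzalutamide, a comparison added after the values had been seen, in which each time has its own prefix. Of 9 members edgeR called 3 higher and 4 lower at 24 h, against 11.7% and 12.9% of the genes tested. HSPA1B (log2 0.49), HSPA8 (0.28) and DNAJB1 (0.18) had risen back toward vehicle levels, whereas HSP90AA1 (-0.24), HSPB1 (-0.20), FKBP4 (-0.14) and HSP90AB1 (-0.13) were lower at 24 h than at 4 h. Each time against the vehicle run of its own prefix gave -0.70 at 4 h and -0.18 at 24 h for HSPA1B, -0.52 and -0.25 for HSPA8, and -0.16 and -0.37 for HSP90AA1, each from a single vehicle run and without a test. DNAJB1 was not called without enzalutamide 4 h replicate 2 (edgeR adjusted p = 0.0748) or enzalutamide 24 h replicate 1 (0.0588) or 2 (0.0677), and HSPB1 not without enzalutamide 4 h replicate 1 (0.0640) or enzalutamide 24 h replicate 2 (0.104), a library without which FKBP4 was not called either (0.0653). The number of called members was then 4 in place of 7, and without a filter on low counts HSPH1 was called lower (log2 -0.11, edgeR adjusted p = 0.0445). The libraries of the siRNA experiment, at 25 µM and after transfection, gave for the same 24 h log2 differences of -1.07 for HSPH1, -0.74 for HSP90AA1, -0.65 for HSPA1B and -0.07 for HSPA8, set here beside the values at 10 µM without a test, because dose, handling and normalization differed.

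**Figure D3:**
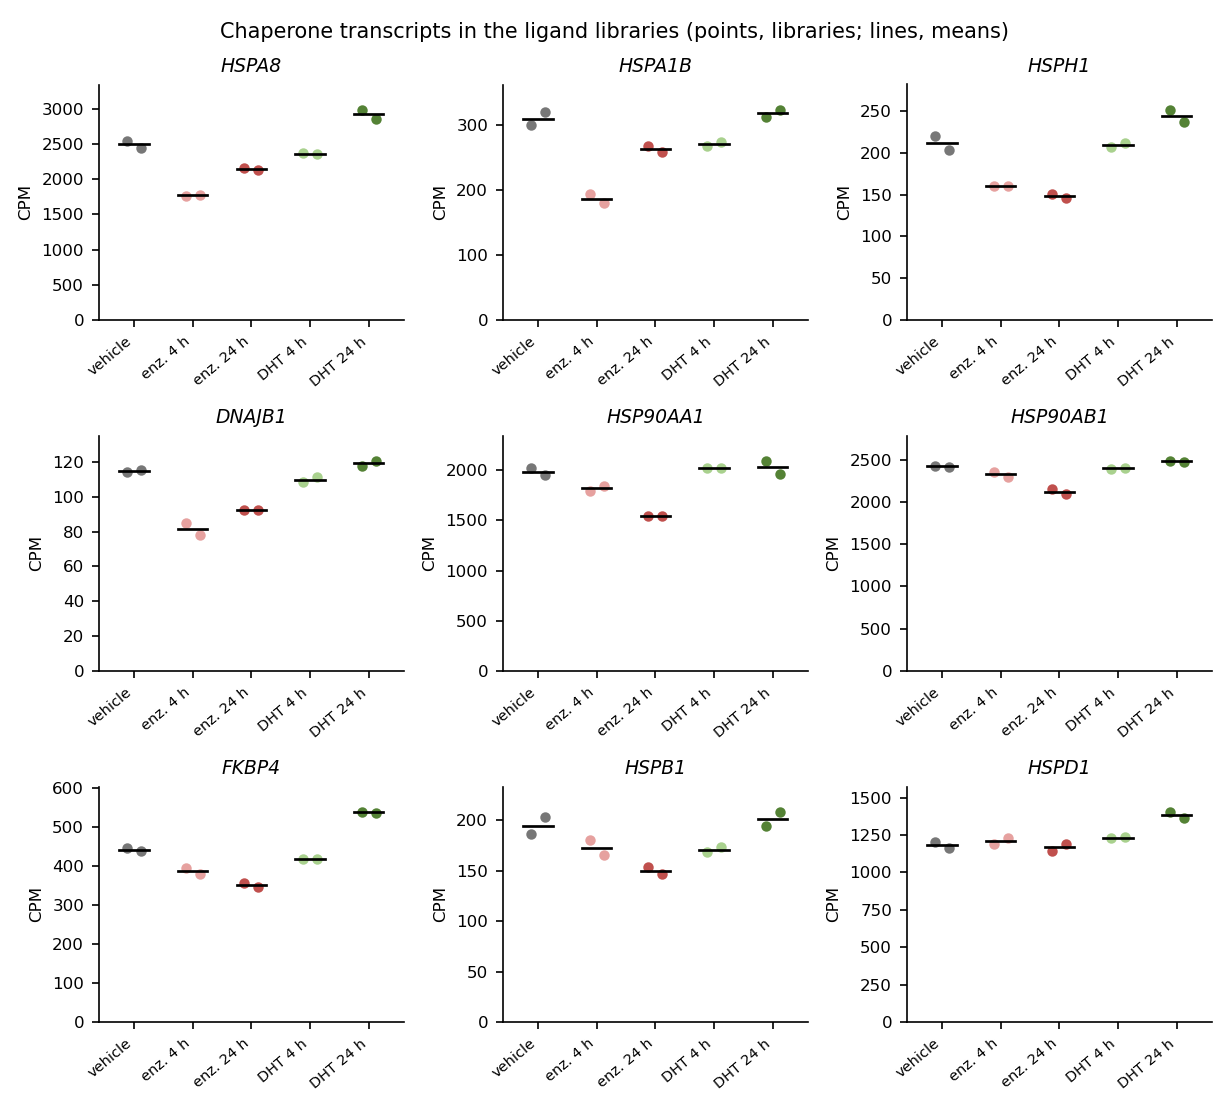
CPM of 9 members in each ligand library (points) with group means (bars), on a linear axis. HSPA1B, HSPA8, DNAJB1 and HSPH1 are lowest in the enzalutamide libraries, and FKBP4, HSPA8, HSPD1 and HSPH1 are highest in the DHT 24 h libraries.

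DHT for 4 h left the members near vehicle. EdgeR called 1 of 9 lower, HSPA1B, and 0 higher, against 2.11% and 4.66% of the genes tested, and 4 of the 9 had an unadjusted p below 0.05. DESeq2 called 2 lower and 0 higher. HSPA1B measured 268 and 274 CPM against 300.3 and 320.2 CPM with vehicle, a fall of both libraries (log2 -0.19, 95% CI -0.29 to -0.10, edgeR adjusted p = 0.0121) that was not called without vehicle replicate 2 (0.161) or DHT 4 h replicate 1 (0.158) or 2 (0.0742). HSPB1 stood at the threshold (log2 -0.19, edgeR adjusted p = 0.0504) and was called by DESeq2 (DESeq2 adjusted p = 0.0159), without a filter on low counts (edgeR adjusted p = 0.000570), with 4 separate vehicle columns (0.0390) and with replicate 1 taken from its ZC2 (0.0248) or ZC3 run (0.0352). It was also called without vehicle replicate 1 (0.0370) or either enzalutamide 4 h library (0.0130 and 0.0137). With 4 vehicle columns HSPA8 was called as well (log2 -0.09, edgeR adjusted p = 0.0167). HSPB1 was not called in the settings not named here, and its log2 difference ran from -0.24 to -0.12 when 1 library was left out. Against the ZC1 vehicle run of replicate 1, HSPA1B differed by -0.19 and HSPB1 by -0.16. The median was -0.06 over the members and -0.01 over all genes.

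DHT for 24 h raised 4 of 9 members and lowered 0 by edgeR and by DESeq2, where edgeR called 26.9% of the genes tested higher and 23.2% lower, so the share was not far from that of all genes. FKBP4, the receptor co-chaperone, measured 539.6 and 536.3 CPM against 446 and 438 CPM with vehicle. HSPA8 measured 2985 and 2851 CPM, HSPD1 1406 and 1361 CPM against 1205 and 1163 CPM, and HSPH1 252 and 237 CPM. For all 4 both DHT libraries exceeded both vehicle libraries, with log2 differences of 0.28 for FKBP4 (95% CI 0.22 to 0.35, edgeR adjusted p = 6.23e-06), 0.23 for HSPA8 (edgeR adjusted p = 2.32e-05), 0.22 for HSPD1 (edgeR adjusted p = 5.68e-05) and 0.20 for HSPH1 (edgeR adjusted p = 0.00136). The other 5 ranged from 0.03 to 0.06 and were not called. Against the vehicle runs of their own prefixes the 4 called members differed by 0.18 to 0.26. The median was 0.06 over the members and about 0 over all genes.

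Between 4 and 24 h of DHT, a comparison also added after the values had been seen and also between prefixes, 7 of 9 members were called higher by edgeR and 0 lower, against 26.3% and 23.5% of the genes tested. DESeq2 called the same numbers. FKBP4 (log2 0.36), HSPA8 (0.30), HSPB1 (0.24), HSPA1B (0.23), HSPH1 (0.22), HSPD1 (0.17) and DNAJB1 (0.12) were higher at 24 h. Their unadjusted p was below 0.05 in 7 of 9 cases. DNAJB1 (edgeR adjusted p = 0.0346) was not called without a filter on low counts (0.0560) or without any one of 6 libraries (0.0599 to 0.217).

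DHT and enzalutamide were compared directly at each time, with log2 differences taken without vehicle, although the vehicle libraries are part of the same model. At 4 h, where DHT had ZC1 and enzalutamide ZC2, edgeR called 6 of 9 members higher with DHT than with enzalutamide and 0 lower, against 8.49% and 7.28% of the genes tested, and DESeq2 called the same numbers. HSPA1B (log2 0.53, 95% CI 0.44 to 0.63), DNAJB1 (0.43), HSPA8 (0.42) and HSPH1 (0.39) led, all of the HSP70 system, followed by HSP90AA1 (0.15) and FKBP4 (0.11). The call of FKBP4 (edgeR adjusted p = 0.0287) was lost without DHT 4 h replicate 1 (0.145) or 2 (0.135) or enzalutamide 4 h replicate 2 (0.102). HSP90AB1, HSPB1 and HSPD1 were not called. Against vehicle columns of their own prefix, without a test, DHT and enzalutamide gave -0.19 and -0.70 for HSPA1B, -0.08 and -0.52 for HSPA8, -0.08 and -0.50 for DNAJB1 and -0.04 and -0.41 for HSPH1.

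At 24 h all 9 tested members were higher with DHT by edgeR and 0 lower, against 31.3% and 33.6% of the genes tested, and by DESeq2 too. HSPH1 had the largest difference (log2 0.72, 95% CI 0.63 to 0.81, edgeR adjusted p = 7.59e-09), then FKBP4 (0.61, edgeR adjusted p = 1.41e-09), HSPA8 (0.44), HSPB1 (0.43), HSP90AA1 (0.40), DNAJB1 (0.37), HSPA1B (0.27), HSPD1 (0.24) and HSP90AB1 (0.23). In each of these the DHT libraries and the enzalutamide libraries did not overlap, also within the ZC3 prefix. The median was 0.40 over the members and -0.03 over all genes at 24 h, and 0.15 and -0.01 at 4 h. In the ligand libraries, again without TMM factors, the endothelial markers, almost all of them VWF, summed to 16.2 CPM with vehicle, 20.5 CPM after 24 h of DHT and 8.89 CPM after 24 h of enzalutamide, with 1 of 4 at 0 in each. The immune markers, mostly CD68, summed to 1.55 CPM with vehicle and to at most 2.77 CPM, after 24 h of DHT. The stromal markers, mostly COL1A1, summed to 25.5 CPM with vehicle, 15.8 CPM after 24 h of DHT and 28.7 CPM after 24 h of enzalutamide. DHT for 24 h raised CD68 (log2 0.97, edgeR adjusted p = 0.000261) and lowered COL1A1 (log2 -0.65, edgeR adjusted p = 5.10e-05). The part of all these markers in the results was not tested.

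**Figure D4:**
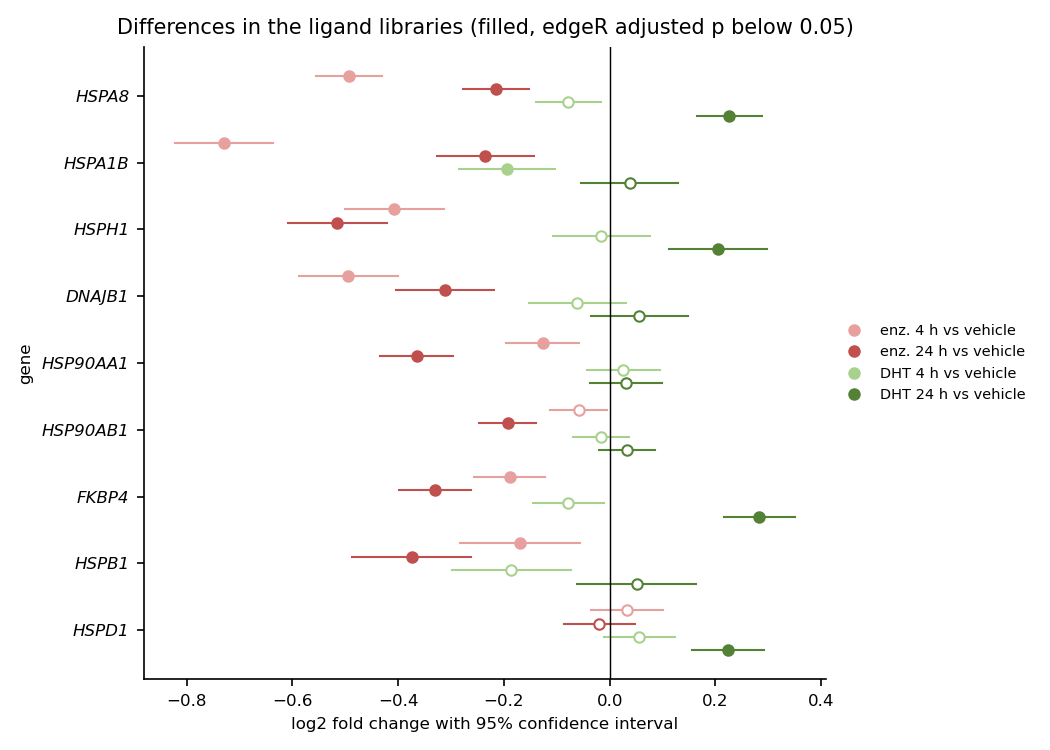
Log2 differences of 9 members in the ligand experiment against vehicle (points) with 95% confidence intervals (lines), filled where the edgeR adjusted p was below 0.05. Enzalutamide points lie left of 0 except that of HSPD1 after 4 h, with HSPA1B at -0.73 after 4 h, and DHT 24 h points lie right of 0 for FKBP4 (0.28), HSPA8 (0.23), HSPD1 (0.22) and HSPH1 (0.20).

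Other genes of the chaperone system were described from fixed lists, some of which hold members, by counts without a test of the list. Of 18 HSP90 co-chaperones, enzalutamide in siControl cells lowered 16 and raised 1, where limma called 24.4% of all genes lower and 17.7% higher, led by CHORDC1, FKBP5 (log2 -0.75), STIP1 (-0.58), which links HSP70 to HSP90, and PIH1D1 (-0.53), with a median of -0.33. In siGATA2 cells 0 of the 18 were called (0.221% of all genes higher and 0.191% lower), and the interaction was called higher for 13 and lower for 1 (15.0% and 10.8% of all genes), with CHORDC1 at 0.81 and FKBP5 at 0.66. SiGATA2 with vehicle lowered 11 of them and raised 1 (31.4% and 24.2% of all genes), with UNC45A at -0.53 and PPID at -0.45, and under enzalutamide 3 were lower and 7 higher (28.1% and 26.3%). In the ligand experiment 6 were lower after 4 h and 14 after 24 h of enzalutamide (6.68% and 17.0% of all genes by edgeR) and 0 higher (6.94% and 16.4%). DHT raised 1 after 4 h, the androgen-induced FKBP5 (log2 1.18), and 15 after 24 h, FKBP5 by 1.93 (4.66% and 26.9% of all genes).

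All 8 subunits of the TRiC chaperonin, which folds actin and tubulin, were lower after 24 h of 10 µM enzalutamide and all 8 were higher after 24 h of DHT (edgeR), by medians of -0.27 and 0.14, where 17.0% of all genes were lower and 26.9% higher. In siControl cells 7 of 8 fell with enzalutamide, led by CCT2 (log2 -0.55) and CCT6A (-0.51), and 6 had a higher interaction (24.4% and 15.0% of all genes by limma). Of 6 prefoldin subunits, which hand proteins to TRiC, 3 fell and 2 rose in siControl cells (24.4% and 17.7% of all genes), among them PFDN6 (-0.27) and PFDN4 (0.27). Of 10 HSP70 exchange and handover factors, 5 were lower and 0 higher with enzalutamide in siControl cells, against the same shares, led by STIP1 and BAG1 (-0.43), and the interaction of 5 was called higher (15.0% of all genes). DHT for 24 h raised 6 of these 10, BAG2 by 0.44 and STUB1 by 0.28, and lowered 2 (26.9% and 23.2% of all genes).

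Among 11 HSP70 and HSP110 genes, members and the microsomal HSPA13 included, enzalutamide in siControl cells lowered 5 and raised 2 (24.4% and 17.7% of all genes by limma), with HSPA13 at 0.49 and HSPA14 at -0.35 beside the members. Of 12 J-domain genes listed as cytosolic, a label not checked for each gene, 7 fell and 3 rose, against the same shares. DNAJC9 (-0.78), DNAJB6 (-0.69) and DNAJA1 (-0.64) led. With siGATA2 7 of these rose and 2 fell in vehicle (24.2% and 31.4% of all genes), DNAJB4 by 1.97 and DNAJB2 by 0.82. Of 9 small heat shock proteins tested there 4 were higher, HSPB1 among them, and 1 was lower, against the same shares, CRYAB by 4.01 and HSPB8 by 1.77. Of 11 mitochondrial chaperones, 5 were higher and 2 lower under enzalutamide in siControl cells, against 17.7% and 24.4% of all genes. HSPA9 (0.54), the mitochondrial HSP70, and LONP1 (0.60) rose like HSPD1, while HSPE1 (-0.43), which encodes the partner of HSPD1, fell. DHT for 24 h raised 10 of these 11, DNAJA3 by 0.49 and GRPEL1 by 0.46 (26.9% of all genes by edgeR). Of 7 paralogs in the endoplasmic reticulum, 4 were higher after 24 h of enzalutamide in the ligand experiment (16.4% of all genes), DNAJB9 by 0.72, and siGATA2 with vehicle lowered HYOU1 (-1.04) and raised 4 (24.2% of all genes), HSPA5 by 0.59.

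**Figure D5:**
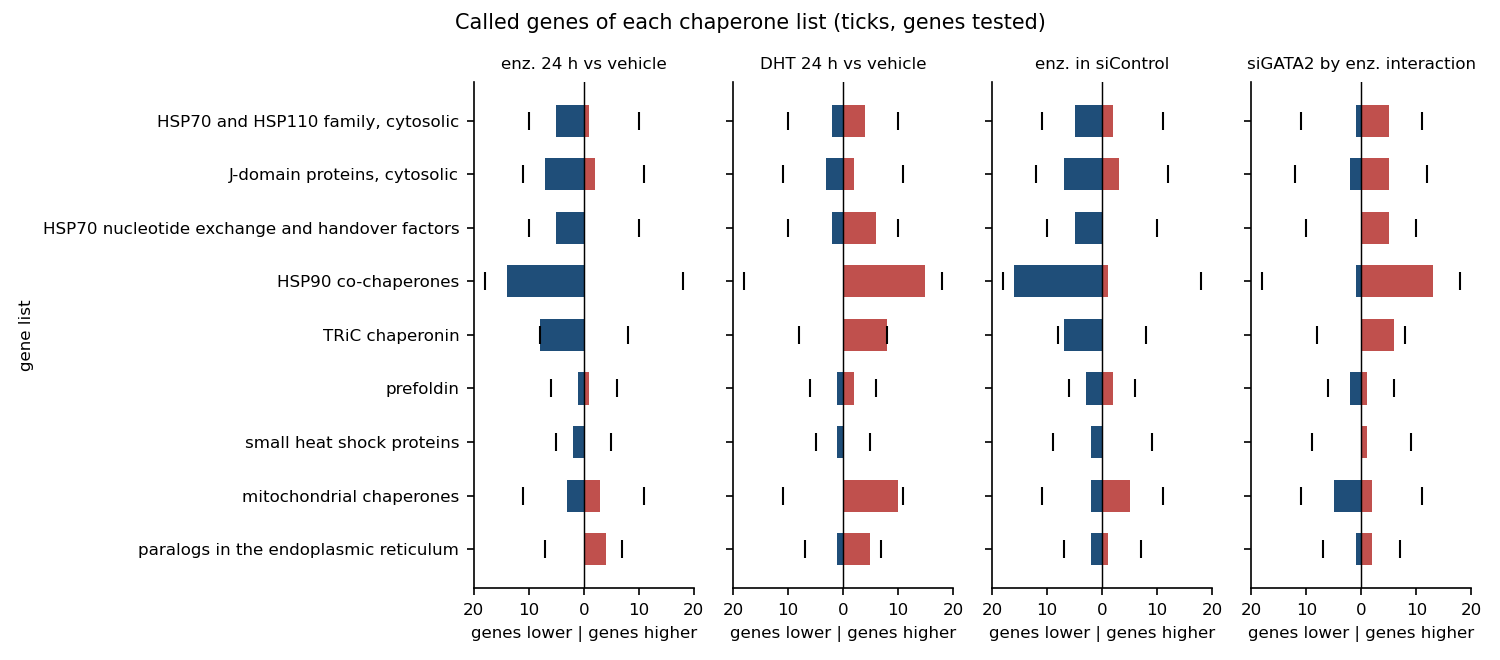
Number of genes called lower (bars to the left) and higher (bars to the right) in each chaperone list in 4 comparisons, at an adjusted p below 0.05 by edgeR or limma, with ticks at the number tested. Of 18 HSP90 co-chaperones 14 were lower after 24 h of enzalutamide, 15 higher after 24 h of DHT, 16 lower with enzalutamide in siControl cells and 13 higher in the interaction.

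Of 26 heat-inducible HSF1 targets, which include most members, 16 fell and 3 rose with enzalutamide in siControl cells (24.4% and 17.7% of all genes by limma), and 13 had a higher and 2 a lower interaction (15.0% and 10.8%). Of the 25 tested in the ligand experiment, 13 were lower and 1 higher after 4 h (6.68% and 6.94% of all genes), and 19 lower and 1 higher after 24 h of enzalutamide (17.0% and 16.4%), MRPL18 among the lower at -0.45 (edgeR). DHT for 24 h raised 12 and lowered 5 (26.9% and 23.2% of all genes), with DNAJB4 at -0.67. With siGATA2 10 rose and 9 fell in vehicle (24.2% and 31.4% of all genes), and 17 rose and 5 fell under enzalutamide (26.3% and 28.1%). Among 8 heat shock factors and regulators, 3 fell and 2 rose in siControl cells with enzalutamide (24.4% and 17.7% of all genes), with HSF4 at 0.34 and HSBP1 at -0.29. HSF1 itself was lower with siGATA2, by -0.29 in vehicle and -0.47 under enzalutamide, whereas DAXX rose by 0.64 and 0.78. Of the 6 androgen response controls, 5 rose and 1, GATA2, fell after DHT at either time, with KLK2 at 2.80 and 4.23. Of all genes, 4.66% rose and 2.11% fell after 4 h of DHT, and 26.9% and 23.2% after 24 h. All 6, GATA2 included, fell after 24 h of 10 µM enzalutamide (17.0% of all genes). In siControl cells GATA2 was instead higher after 24 h of 25 µM enzalutamide, at a mean of 129.3 RPKM against 82.3 RPKM with vehicle.

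The members moved alike in some respects and apart in others. HSPA1B and DNAJB1 followed each other in both experiments, with a Pearson correlation of log2 levels of 0.93 over the 10 ligand and 0.99 over the 12 siRNA libraries. HSPA1B and HSPA8 did so over the ligand libraries (0.93) but ran opposite over the siRNA libraries (-0.75), as did HSPA8 and HSPB1 (0.58 and -0.94). These correlations describe libraries that fall into treatment groups and carry no test. Among 8226 genes, those whose smaller correlation of the 2 experiments with a member was highest were SRSF2 (0.98) and TRMT10C (0.98) for HSPH1, POLR2B (0.98) and FUBP1 (0.98) for HSP90AA1, and EIF3B (0.985) and NFATC2IP (0.98) for FKBP4. For HSPA8 they were NIFK (0.96) and MYC (0.96), for HSPB1 ACTN4 (0.96) and EHMT1 (0.95), for HSP90AB1 LMNB1 (0.95) and SLC39A8 (0.95), for HSPD1 ANP32B (0.95) and EIF3M (0.94), and for HSPA1B TMEM248 (0.93) after DNAJB1. For DNAJB1 they were HSPA1B and SNRNP35 (0.93).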

How the data were processed

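Polyadenylated RNA was sequenced from LNCaP cells. Per the submitters' notes and the study's methods, the authors aligned reads with TopHat2 (2.0) to hg19 and quantified genes in Partek. For the ligand experiment they deposited estimated counts per gene, which were rounded here. For the siRNA experiment the deposited values were read as RPKM, from the values themselves and the study's figure legends. The design had allowed for either unit.

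The ligand conditions were compared by edgeR 4.0.16 under R 4.3.3 (quasi-likelihood, TMM factors, default filter), all 5 in a joint model. A gene missing from a ligand table was set to 0 there. RPKM values were tested with limma 3.58.1 (variance trend) on log2(RPKM + 0.1), keeping genes with values over 0 in 3 or more libraries, again as a joint model of 4 conditions. Genes were called at a Benjamini-Hochberg adjusted p below 0.05 over all genes tested. The edgeR and limma steps were tested on simulated data. DESeq2 1.42.0, other scalings, filters, pseudocounts and vehicle runs, a replicate block and leaving out each library were alternatives.

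The members and lists were chosen with earlier results of these data known. Some results for listed genes are not reported here. All members were named, and of each other list the up to 4 called genes with the largest absolute log2 difference and a mean of at least 5 CPM or RPKM. The genes most alike a member had the largest smaller Pearson correlation of the ligand and siRNA libraries.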

Additional observations from a re-analysis of the deposited data

Results flagged for a closer look

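The response of 6 members to enzalutamide differed between siControl and siGATA2 cells by the interaction term, which was called higher for 15.0% and lower for 10.8% of all genes. Its values on the log2 scale, by limma, were 0.94 for HSPH1, 0.70 for HSP90AA1, 0.61 for HSPA1B, 0.35 for DNAJB1, 0.22 for FKBP4 and -0.16 for HSPD1. That of HSPD1 was called in 7 of 19 settings only. HSPH1 and HSP90AA1 are the members whose siControl fall was furthest, and their siGATA2 libraries overlapped between treatments.

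Between 4 and 24 h of enzalutamide 7 members differed by edgeR. HSPA1B (0.49), HSPA8 (0.28) and DNAJB1 (0.18) of the HSP70 system were higher at 24 h, and HSP90AA1 (-0.24), HSPB1 (-0.20), FKBP4 (-0.14) and HSP90AB1 (-0.13) were lower. Between 4 and 24 h of DHT 7 members were higher at 24 h, FKBP4 by 0.36, HSPA8 by 0.30, HSPB1 by 0.24, HSPA1B by 0.23, HSPH1 by 0.22, HSPD1 by 0.17 and DNAJB1 by 0.12. Both comparisons of times were added after the values had been seen, and each time has its own column prefix in them.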

How the results depend on the processing

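Over all alternatives, 1970 values kept their direction and side of the threshold, 69 lost a call, 12 gained one, 21 changed sign and 16 counts moved. The number of members called after 4 h of DHT was 1 and became 2 with DESeq2, 2 without a filter on low counts, 3 with 4 separate vehicle columns, 2 with the ZC2 and 2 with the ZC3 run of vehicle replicate 1, and 0 to 2 without a library. That for enzalutamide at 24 h against 4 h was 7, and 4 to 7 without a library. Changes of sign concerned values that were not called. HSPH1 after 4 h of DHT was 0.01 with the ZC2 run and -0.06 to 0.04 without a library. Without a library, log2 differences after 24 h of DHT ran from -0.01 to 0.09 for HSPA1B, -0.02 to 0.08 for HSP90AA1 and -0.01 to 0.11 for HSPB1. HSPB1 ran from -0.07 to 0.04 for DHT against enzalutamide at 4 h. HSP90AA1 at 24 h against 4 h of DHT was -0.0036 without a filter and -0.05 to 0.04 without a library. For enzalutamide in siGATA2 cells HSPA1A was -0.01 at a pseudocount of 0.01 and -0.04 to 0.04 without a library, where HSPA8 ran from -0.07 to 0.04, HSP90AA1 from -0.08 to 0.01 and HSPD1 from -0.05 to 0.01. HSPA1A with siGATA2 in vehicle was 0.06 with equal library medians and -0.03 to 0.01 without a library, and the interaction of HSPA8 ran from -0.0014 to 0.11. The causes were not tested. A left-out ligand library leaves its condition with 1, which is assumed to vary like the others. Without the filter on low counts or without vehicle replicate 2, HSPA1A was tested too and adds to some of the counts.

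Same-numbered libraries did not deviate together (r from -0.0714 to 0.0647), and 3 of 12 siRNA libraries correlated best with their own number, so the numbers were not taken as pairs. With the replicate number as a block, 6 members were called after 4 h of enzalutamide (HSPB1 lost, edgeR adjusted p = 0.0682), 8 after 24 h, 1 and 4 after 4 and 24 h of DHT, 6 and 9 for DHT against enzalutamide, 7 and 6 between times (DNAJB1 lost for DHT, edgeR adjusted p = 0.0509), 6 for enzalutamide in siControl (HSP90AB1 lost, limma adjusted p = 0.0875) and 0 in siGATA2 cells, 8 for siGATA2 with vehicle (HSP90AA1 lost, limma adjusted p = 0.0503), 8 under enzalutamide (HSP90AB1 lost, limma adjusted p = 0.0882) and 5 for the interaction (HSPD1 lost, limma adjusted p = 0.0664). It changed no other call. For uncalled members whose confidence interval spans 0, differences within that interval are not excluded by 2 or 3 libraries per condition.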

Other observations

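The level of HSPA1B was far higher in the ligand than in the siRNA tables on scales per length. Vehicle cells of the ligand experiment had 124 CPM per kilobase of annotated exon and siControl vehicle cells 7.90 RPKM, a ratio of 15.8, where the median over 8296 genes was 0.692 and 0.121% of them had a higher ratio. EEF1A1, a translation factor gene with many pseudogenes, had a ratio of 15.4. HSPB1 lay on the other side at 0.236. The tables were normalized separately, the gene lengths used by the authors are unknown, and the cause was not tested.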
